A study of Homo sapiens with 42 samples.

Results

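The sestrins SESN1, SESN2 and SESN3 are a family of stress-inducible proteins, and here they were followed as 3 of 19775 genes on 42 arrays. Each gene was read from the probe set that the platform annotation assigns to that symbol alone and that had the highest mean log2 signal over all arrays. SESN1 had 1 such probe set to choose from, SESN2 had 2 and SESN3 had 7.

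The arrays measured total RNA of A375, a human melanoma cell line, on Affymetrix expression arrays. Cells carried GL2 siRNA, the control, or siRNA against p53, CDT1 or BRCA1 for 48 h, and were then held for 26 h in 0.065% DMSO, 650 nM MLN4924, 5 µM Nutlin or 100 nM daunorubicin. There were 14 groups of 3 arrays. GL2 and p53 siRNA each had DMSO arrays in 2 sets (6 arrays in all), MLN4924, Nutlin and daunorubicin, while CDT1 and BRCA1 siRNA had DMSO and MLN4924 alone, so every group was transfected and no group lacked an siRNA. The labels do not say whether the arrays of a group came from separate cultures, so p-values reflect only how far these samples vary, possibly for technical reasons.

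Sestrins restrain the growth kinase complex mTORC1 by binding GATOR2, a complex that otherwise relieves a brake on mTORC1, and SESN2 also senses leucine. They act with AMPK, the kinase that responds to low energy, and they aid the antioxidant cycle of peroxiredoxins and sulfiredoxin. SESN1 is best known as a target of the tumour suppressor p53, SESN2 as a target of p53 and of the stress factors ATF4 and NRF2, and SESN3 as a target of the FOXO factors. The agents act at different points of these circuits. MLN4924 blocks the enzyme that starts neddylation and so stops cullin-RING ubiquitin ligases, whose substrates include the replication licensing factor CDT1 and NRF2. Nutlin frees p53 from its inhibitor MDM2. Daunorubicin poisons topoisomerase II and breaks DNA.

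The comparison of p53 with GL2 siRNA asks which sestrin changes need p53, so the stretches before the annotated transcription starts are shown first. They come from RefSeq on the build GRCh38.p14, where all 3 genes had windows (5 in all, since SESN1 has 3 annotated starts), each from 250 bases before a start to 50 after it. The capitals in SESN1 mark a 10-base match to the p53 half-site, at 49 to 40 bases before the start at position 109008988 (chr6:109009018-109009047, minus strand). SESN2 (chr1:28259268-28259517, plus strand) and SESN3 (chr11:95232476-95232725, minus strand) are given as the 250 bases before their start, in lower case because none of the letters searched for were found.
SESN1: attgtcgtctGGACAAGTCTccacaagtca
SESN2: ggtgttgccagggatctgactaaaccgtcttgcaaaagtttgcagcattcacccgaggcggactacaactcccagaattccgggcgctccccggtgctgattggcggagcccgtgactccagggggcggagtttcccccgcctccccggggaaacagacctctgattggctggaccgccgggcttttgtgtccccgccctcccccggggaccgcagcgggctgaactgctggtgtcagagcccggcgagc
SESN3: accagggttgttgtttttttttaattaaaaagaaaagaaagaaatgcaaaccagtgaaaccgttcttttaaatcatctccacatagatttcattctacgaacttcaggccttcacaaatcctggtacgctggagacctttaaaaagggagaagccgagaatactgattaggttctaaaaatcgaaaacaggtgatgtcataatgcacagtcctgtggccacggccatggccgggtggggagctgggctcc

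Both strands were searched for the p53 half-site, the ATF4 element TGATGNAA, the antioxidant response element TGACNNNGC and the FOXO element TGTTTAC. Over all 35116 windows of this length, 6.63% held the p53 half-site, 3.62% the ATF4 element, 13.3% the antioxidant element and 3.42% the FOXO element. The SESN1 start at 109009552 held an antioxidant element on the minus strand, 159 to 151 bases before it, and the remaining SESN1 start held none of the 4. These shares are per window, and SESN1 had 3 windows. A match is a description of the letters and not of a bound site. Letters outside the windows were not searched, so the lack of a match does not mean that a gene lacks such an element. The windows also differed in base composition, with a GC content of 65.6% for SESN2 and 42.8% for SESN3 beside a median of 58.0% over all windows.

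Values below are log2 of the deposited signal after each array was centred so that its median gene lay at 6.05, because that median ranged from 5.63 to 6.35 between arrays as deposited. A change is called when the Benjamini-Hochberg adjusted p of limma over all 19775 genes is below 0.05 and the change is at least 1.5-fold. CDKN1A, the p53 target that encodes the cell cycle inhibitor p21, served as a check of the p53 siRNA. Its level fell by 2.09 ± 0.12 (SE, adjusted p = 1.59e-13) with p53 siRNA under DMSO. The BRCA1 level went against the label on 2 libraries, which are therefore called the libraries labelled so. These were GL2 siRNA with MLN4924 replicate 3 (BRCA1 at 4.70 beside 7.95 and 8.24) and BRCA1 siRNA with MLN4924 replicate 3 (BRCA1 at 8.18 beside 4.93 and 5.28). CDT1 set them apart too, at 7.27 beside 8.86 and 8.81 in GL2 siRNA and at 8.61 beside 7.27 and 7.31 in BRCA1 siRNA. On both genes each library lay nearer the other group. Whether the 2 were exchanged was not tested. Another array, p53 siRNA with daunorubicin replicate 1, had a 5′ to 3′ signal ratio of 0.0118 for actin, against 0.649 to 0.945 on the other 41 arrays. The sestrin results that rest on these 3 arrays are also given without them. The melanocyte factors SOX10 and MITF had medians of 10.34 and 8.29 over the arrays, whereas the pigment genes PMEL, MLANA, TYR and TYRP1 stayed below the median gene's 6.05 on every array, the highest being TYR at 5.90. The summed signal, after centring, of 7 melanocyte markers was 537.2 to 932.9 on the arrays with MLN4924 and 1161.2 to 3270.5 on the others. SOX10 alone made up 20.1% to 73.9% of that sum, with a signal of 132.1 to 487.4 with MLN4924 and 667.2 to 2031.9 elsewhere. The other 6 summed to 360.3 to 604.2 and 494.0 to 1238.6, which overlap. The summed signal of 7 epithelial markers was 3743.0 to 4839.3 with MLN4924 and 2149.3 to 3384.5 elsewhere. Of that sum KRT18 alone made up 79.0% to 94.7%, and 4 of the 7, EPCAM and CDH1 among them (highest 5.998 and 4.28), stayed below the median gene on every array. KRT18 had a signal of 3477.1 to 4523.6 with MLN4924 and 1863.9 to 3030.6 elsewhere, and the other 6 summed to 246.4 to 401.5 and 227.4 to 494.6. KRT8 (median 7.11) and KRT14 (median 6.55) also lay above the median gene by their medians. The 6 fibroblast markers summed to 408.3 to 704.3 with MLN4924 and 422.4 to 1005.5 elsewhere, and the 6 leukocyte markers to 172.9 to 356.1 and 246.1 to 906.4. Of the latter, LYZ lay above the median gene on every array (6.12 to 9.65, median 7.83), and 4 of 6 lay below it on every array, PTPRC at 4.20 at most. The part of these shifts in the sestrin changes with MLN4924 was not tested.

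**Figure D1:**
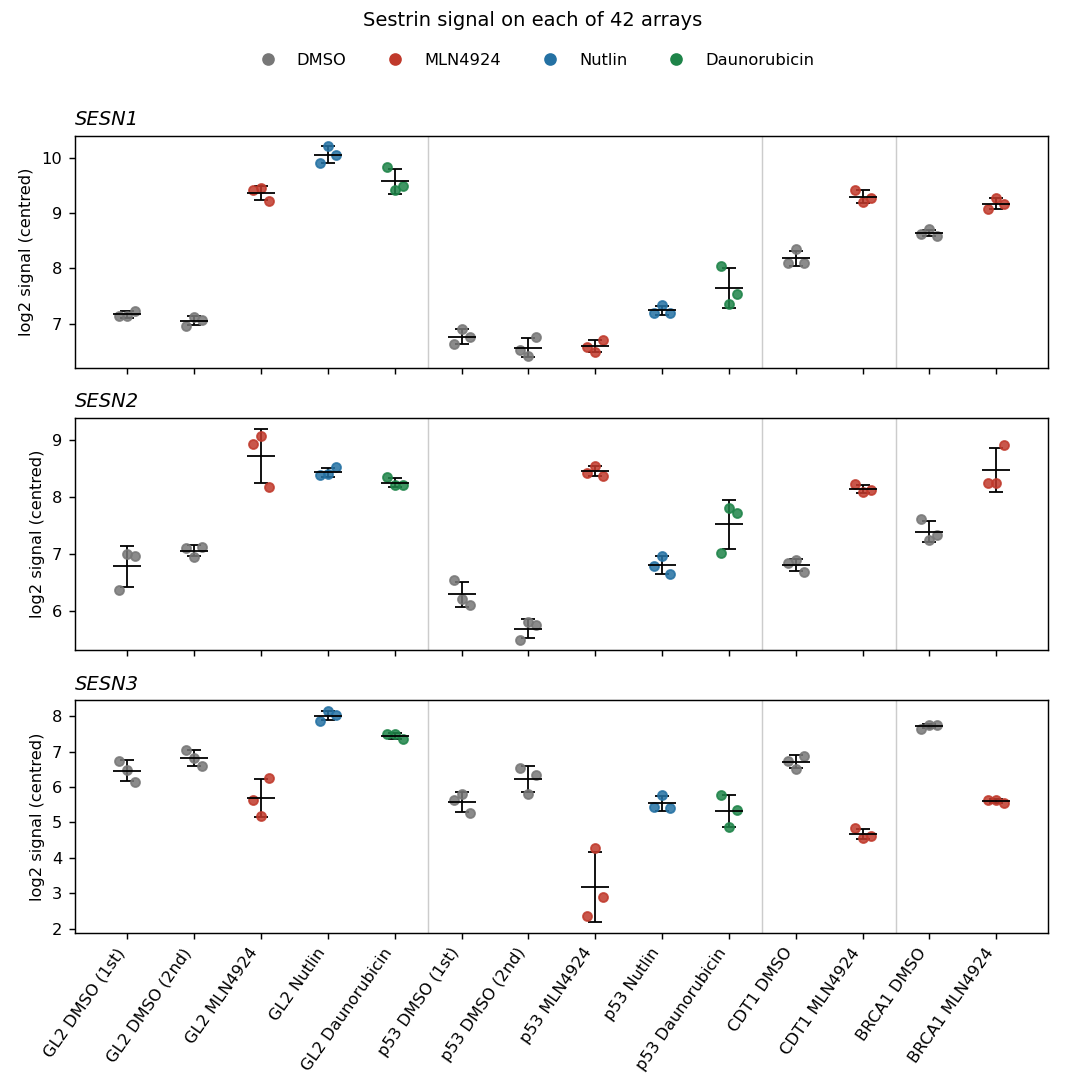
Centred log2 signal of SESN1, SESN2 and SESN3 (y axis, log2 units) on each of the 42 arrays (points), by siRNA and treatment group (x axis), with the mean (long bar) and SD of 3 arrays. SESN1 is low in all p53 siRNA groups under DMSO and MLN4924 (6.41 to 6.91), SESN2 is high in every MLN4924 group (8.10 to 9.07), and SESN3 is lowest in p53 siRNA with MLN4924 (2.37 to 4.28).

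In GL2 siRNA cells SESN1 rose with all 3 agents, by 4.78-fold to 7.70-fold. With p53 siRNA its change under MLN4924 was -0.07 and was not called, while daunorubicin still raised it. In GL2 siRNA the 6 DMSO arrays ran from 6.96 to 7.23 (median 7.12). The MLN4924 arrays stood at 9.41, 9.46 and 9.22, those with Nutlin at 9.91, 10.21 and 10.04, and those with daunorubicin at 9.83, 9.41 and 9.48. Every treated array lay above every DMSO array. The rise was 2.26 ± 0.12 with MLN4924 (adjusted p = 2.06e-15), a 4.78-fold change. It was 2.95 ± 0.12 with Nutlin (7.70-fold, adjusted p = 5.11e-19) and 2.47 ± 0.12 with daunorubicin (5.52-fold, adjusted p = 5.68e-17). For comparison, 17.2% of all genes were called with MLN4924, 18.7% with Nutlin and 19.2% with daunorubicin in these cells. The 3 comparisons share their DMSO arrays. By size, SESN1 ranked 88 from the top among all genes with MLN4924, 44 with Nutlin and 64 with daunorubicin.

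With p53 siRNA, the 6 DMSO arrays of SESN1 ran from 6.41 to 6.91 (median 6.68), and the MLN4924 arrays, at 6.58, 6.49 and 6.70, lay within that range. The change with MLN4924 was -0.07 ± 0.12 (95% interval -0.31 to 0.16, adjusted p = 0.679), in a comparison where 25.4% of all genes were called. Its size depended on the scaling. The deposited medians of these MLN4924 arrays were low, at 5.69, 5.71 and 5.63. In this comparison the median change of all genes was -0.22 as deposited and 0.20 after centring. Under other settings the SESN1 change ran from -0.49 to 0.03, and it was called in none of them. Nutlin gave 7.20, 7.33 and 7.19, above the DMSO range. That difference was 0.58 ± 0.12 (adjusted p = 0.00693), just under the 1.5-fold needed for a call, in a comparison with 1.15% of genes called. Without centring it was 0.73, past that fold. Daunorubicin gave 8.04, 7.35 and 7.54, a rise of 0.98 ± 0.12 (1.98-fold, adjusted p = 1.81e-07), with 13.9% of genes called. The highest of these 3 values is on the array with the low actin ratio, and the change without the 3 doubted arrays was 0.78 (adjusted p = 3.24e-06).

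The loss itself was tested as the change with p53 siRNA less the change with GL2 siRNA. For SESN1 it was -2.33 ± 0.16 with MLN4924 (adjusted p = 3.49e-11), -2.37 ± 0.16 with Nutlin (adjusted p = 1.51e-12) and -1.48 ± 0.16 with daunorubicin (adjusted p = 3.63e-08). All 3 differences were called, where 10.4%, 13.1% and 18.8% of all genes were. Without the doubted arrays the differences with MLN4924 and daunorubicin were -2.40 (adjusted p = 8.44e-12) and -1.68 (adjusted p = 4.27e-10). With p53 siRNA, the treated arrays of SESN1 differed directly by -1.06 ± 0.13 for MLN4924 less daunorubicin (adjusted p = 1.73e-07). Without the doubted array, which holds the highest daunorubicin value, that difference was -0.86 (adjusted p = 1.17e-06), and in a fit of only the groups compared the call was lost (adjusted p = 0.0518).

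SESN1 also rose before any drug when CDT1 or BRCA1 was targeted. Under DMSO, CDT1 siRNA gave 8.10, 8.34 and 8.10, and BRCA1 siRNA gave 8.62, 8.70 and 8.58, all above the GL2 siRNA range of 6.96 to 7.23. The rises were 1.07 ± 0.12 with CDT1 siRNA (adjusted p = 1.14e-07) and 1.53 ± 0.12 with BRCA1 siRNA (adjusted p = 1.09e-10). In these comparisons 6.3% and 8.48% of all genes were called. With p53 siRNA the difference under DMSO was -0.45 ± 0.09 (adjusted p = 0.00157), under 1.5-fold, where 3.98% of genes were called.

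MLN4924 added less SESN1 on top of the higher start. With CDT1 siRNA it brought SESN1 to 9.42, 9.19 and 9.26, a rise of 1.11 ± 0.13 (adjusted p = 2.62e-07), in a comparison with 10.6% of genes called. With BRCA1 siRNA the arrays stood at 9.08, 9.26 and 9.17, a difference of 0.53 ± 0.13 (adjusted p = 0.00289), under 1.5-fold, with 16.9% of genes called. The end levels of GL2, CDT1 and BRCA1 siRNA under MLN4924 overlapped between neighbours in the order of group means (9.36, 9.29 and 9.17). The change was smaller than in GL2 siRNA by 1.14 with CDT1 siRNA (difference -1.14 ± 0.18, adjusted p = 0.000709) and by 1.72 with BRCA1 siRNA (-1.72 ± 0.18, adjusted p = 4.03e-07). In these comparisons 1.22% and 1.86% of all genes were called. Without the doubted arrays the differences were -1.215 and -1.79, both still called, and the changes with MLN4924 were 2.33 in GL2 and 0.53 in BRCA1 siRNA.

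SESN2 rose with MLN4924 whichever siRNA the cells carried, p53 siRNA included. Its rise with Nutlin was also called with either siRNA, though in p53 siRNA the call was lost under 3 of 12 other settings. The difference of -0.70 between the siRNAs did not pass the test with the settings used here, but did under 9 of 12 others. In GL2 siRNA the DMSO arrays ran from 6.38 to 7.13 (median 6.99) and those with MLN4924 stood at 8.93, 9.07 and 8.19, the lowest being on the library labelled replicate 3 whose BRCA1 level went against its label. With p53 siRNA the DMSO arrays ran from 5.51 to 6.55 (median 5.97) and those with MLN4924 stood at 8.43, 8.55 and 8.38. CDT1 siRNA went from 6.69 to 6.90 under DMSO to 8.23, 8.10 and 8.12, and BRCA1 siRNA from 7.25 to 7.61 to 8.25, 8.25 and 8.92. In all 4 siRNAs the treated arrays lay above the DMSO arrays.

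The rise of SESN2 with MLN4924 was 1.80 ± 0.18 in GL2 siRNA (3.48-fold, adjusted p = 2e-09) and 2.45 ± 0.18 in p53 siRNA (5.48-fold, adjusted p = 2.26e-12). It was 1.34 ± 0.20 with CDT1 siRNA (adjusted p = 1.43e-05) and 1.07 ± 0.20 with BRCA1 siRNA (adjusted p = 0.000152). Among all genes it ranked 56 from the top in p53 siRNA and 186 in GL2 siRNA. The change with p53 siRNA exceeded that with GL2 siRNA by 0.65 ± 0.25 (95% interval 0.14 to 1.16), which did not pass the test (adjusted p = 0.0854). Its size and call depended on the setting. It was 0.38 without the doubted libraries (adjusted p = 0.152), 0.42 without centring (adjusted p = 0.369) and 0.21 against the first DMSO set alone (adjusted p = 0.765), but 1.09 against the second set alone (adjusted p = 0.0118) and 1.03 with the other SESN2 probe set (adjusted p = 0.013).

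The doubted MLN4924 libraries bear on how SESN2 compares between siRNAs. Without them the rise in GL2 siRNA was 2.07 (adjusted p = 9.94e-13) and that in BRCA1 siRNA 0.85 (adjusted p = 5.08e-05). With them, the change in CDT1 and BRCA1 siRNA differed from that in GL2 siRNA by -0.46 ± 0.27 (adjusted p = 0.493) and -0.73 ± 0.27 (adjusted p = 0.191). Without them these differences were -0.73 (adjusted p = 0.0188) and -1.22 (adjusted p = 0.000322), both past the threshold. Which of the values describes the conditions was not tested.

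Nutlin brought SESN2 to 8.38, 8.41 and 8.53 in GL2 siRNA, a rise of 1.51 ± 0.18 (adjusted p = 4.32e-08), and daunorubicin to 8.35, 8.21 and 8.21, a rise of 1.33 ± 0.18 (adjusted p = 4.34e-07). With p53 siRNA, Nutlin gave 6.80, 6.97 and 6.66, above the DMSO range, a rise of 0.81 ± 0.18 (adjusted p = 0.0106). That call was lost with the first DMSO set alone (0.51, adjusted p = 0.402), with the other probe set (0.65, adjusted p = 0.0566) and without p53 siRNA Nutlin replicate 1 (0.82, adjusted p = 0.0653). Daunorubicin gave 7.03, 7.82 and 7.73 with p53 siRNA, a rise of 1.53 ± 0.18 (adjusted p = 1.28e-07). The lowest of these is on the array with the low actin ratio, and without it the rise was 1.78 (adjusted p = 8.69e-11). The difference between siRNAs was -0.70 ± 0.25 for Nutlin (95% interval -1.21 to -0.19, adjusted p = 0.0549). It passed the test under 9 of 12 other settings, such as quantile normalization (-0.84, adjusted p = 0.0121) and the other probe set (-0.89, adjusted p = 0.0267). For daunorubicin it was 0.20 ± 0.25 (95% interval -0.31 to 0.71, adjusted p = 0.657), and 0.45 without the doubted array (adjusted p = 0.0655).

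Under DMSO, p53 siRNA lowered SESN2 by 0.93 ± 0.14 (change -0.93, adjusted p = 2.83e-05), with the ranges 5.51 to 6.55 and 6.38 to 7.13 overlapping by the lowest GL2 array. With the first DMSO sets alone the change was -0.49 (adjusted p = 0.305). CDT1 siRNA changed SESN2 by -0.12 ± 0.18 (95% interval -0.48 to 0.24) and BRCA1 siRNA by 0.47 ± 0.18 (95% interval 0.11 to 0.83, adjusted p = 0.0705), neither called. The second probe set of SESN2 gave the same direction in all 8 drug comparisons, from 0.65 with Nutlin in p53 siRNA to 2.49 with MLN4924 in p53 siRNA.

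**Figure D2:**
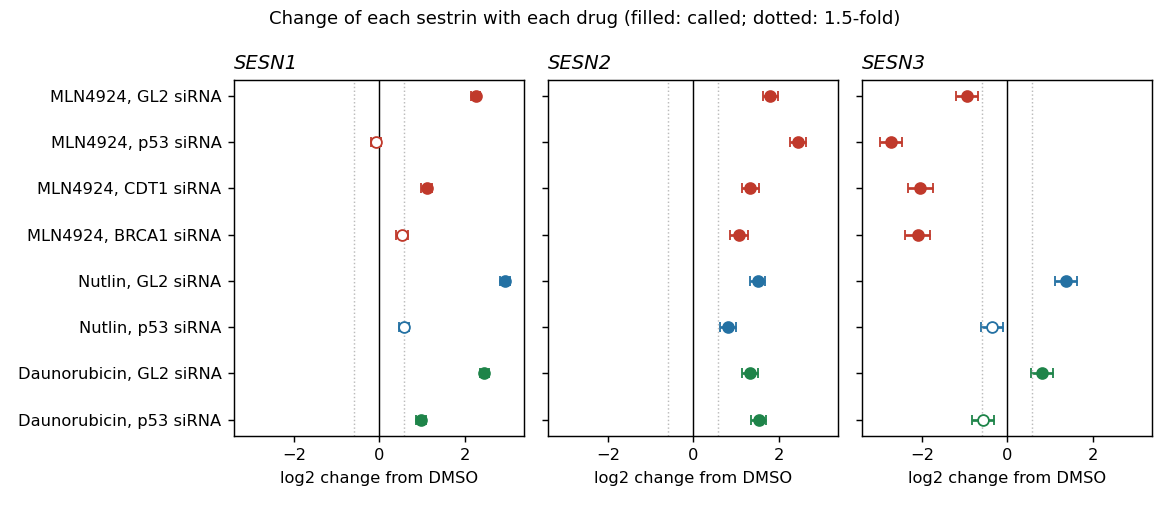
Log2 change of each sestrin from DMSO (x axis, ± SE) for each drug and siRNA (y axis). Filled points were called and open points were not, and dotted lines mark 1.5-fold. SESN2 lies to the right of 0 in all 8 rows (0.81 to 2.45), SESN1 drops to -0.07 with MLN4924 in p53 siRNA, and SESN3 lies to the left of 0 with MLN4924 in all 4 siRNAs (-0.95 to -2.72).

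SESN3 went the other way from SESN2 with MLN4924, falling in all 4 siRNAs, while with Nutlin and daunorubicin it rose in GL2 siRNA alone among the siRNAs tested. In GL2 siRNA the DMSO arrays ran from 6.15 to 7.06 (median 6.66), and the MLN4924 arrays stood at 5.62, 5.18 and 6.26, so that 1 of them, the doubted library, overlapped the DMSO range. With p53 siRNA the DMSO arrays ran from 5.25 to 6.54 (median 5.81) and the MLN4924 arrays stood at 2.37, 4.28 and 2.88. All 3 lay below the DMSO range. These are deposited signals of 4.0, 15.3 and 5.5, below the median of all values of 31.9, where a fold change is poorly defined. CDT1 siRNA went from 6.73, 6.52 and 6.88 to 4.84, 4.55 and 4.63, and BRCA1 siRNA from 7.65, 7.75 and 7.75 to 5.64, 5.64 and 5.55, with no overlap in either.

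The change of SESN3 with MLN4924 was -0.95 ± 0.26 in GL2 siRNA (adjusted p = 0.00546) and -2.72 ± 0.26 in p53 siRNA (adjusted p = 8.93e-10). It was -2.04 ± 0.30 with CDT1 siRNA (adjusted p = 9.46e-06) and -2.10 ± 0.30 with BRCA1 siRNA (adjusted p = 2.98e-06). In GL2 siRNA the call was lost without MLN4924 replicate 2 (-0.70, adjusted p = 0.0837) and with the first DMSO set alone (-0.77, adjusted p = 0.0623), and was -1.24 without the doubted libraries (adjusted p = 0.00101), where that in BRCA1 siRNA was -2.075. With 16 added to every signal, which damps dim values, the falls were -0.75, -1.38, -1.52 and -1.80 in GL2, p53, CDT1 and BRCA1 siRNA, all still called. The difference between p53 and GL2 siRNA was -1.77 ± 0.37 (adjusted p = 0.00137), and with 16 added it was -0.63 (adjusted p = 0.0572), no longer called. Without the doubted libraries it was -1.49 (adjusted p = 0.00631). The differences of CDT1 and BRCA1 from GL2 siRNA, -1.09 ± 0.40 (adjusted p = 0.192) and -1.15 ± 0.40 (adjusted p = 0.149), were not called, nor were they without the doubted libraries (-0.80 and -0.84). The SESN3 arrays of CDT1 siRNA with MLN4924 were also dim, at deposited signals of 21.0 to 28.1.

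Nutlin took SESN3 to 7.87, 8.13 and 8.03 in GL2 siRNA, a rise of 1.38 ± 0.26 (2.60-fold, adjusted p = 0.000109), and all 3 arrays lay above the DMSO range. Daunorubicin took it to 7.49, 7.50 and 7.35, a rise of 0.81 ± 0.26 (adjusted p = 0.0172). That rise lost its call without daunorubicin replicate 1 or 2 (adjusted p = 0.0579 and 0.0606) or against the second DMSO set alone (0.63, adjusted p = 0.122). With p53 siRNA neither was called, with 5.42, 5.79 and 5.41 under Nutlin (-0.36 ± 0.26, adjusted p = 0.494) and 5.78, 4.88 and 5.34 under daunorubicin (-0.57 ± 0.26, adjusted p = 0.122). Without the doubted array the latter was -0.79 (adjusted p = 0.0416). The change with p53 siRNA was lower than with GL2 siRNA by 1.73 for Nutlin (-1.73 ± 0.37, adjusted p = 0.000977) and by 1.38 for daunorubicin (-1.38 ± 0.37, adjusted p = 0.00622), the latter -1.60 without the doubted array (adjusted p = 0.00192).

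Without drug, BRCA1 siRNA raised SESN3 by 1.08 ± 0.26 (adjusted p = 0.00427), its 3 arrays lying above all 6 of GL2 siRNA. CDT1 siRNA gave 0.07 ± 0.26 (95% interval -0.46 to 0.61). With p53 siRNA it was -0.74 ± 0.21 (adjusted p = 0.0211), but the ranges overlapped and the call was lost against either DMSO set alone (-0.89, adjusted p = 0.15, and -0.59, adjusted p = 0.268). It was also lost without any 1 of 4 DMSO arrays (GL2 first set replicate 1, GL2 second set replicate 1, p53 first set replicate 3 or p53 second set replicate 2), with values from -0.64 to -0.68. The 6 further SESN3 probe sets were dim, and their directions are a description. All 6 were higher with Nutlin and with daunorubicin in GL2 siRNA and all 6 lower with MLN4924 in BRCA1 siRNA, but the ranges of treated and DMSO arrays were apart in 1 of 6 each time. With MLN4924, 5 of 6 were lower in p53 siRNA (2 apart), 5 of 6 in CDT1 siRNA (1 apart) and 4 of 6 in GL2 siRNA (0 apart). In p53 siRNA 3 were higher and 3 lower with Nutlin, and 2 higher and 4 lower with daunorubicin, and under DMSO 2 of 6 were lower with p53 than with GL2 siRNA, with 0 apart in each. With the mean of all 7 probe sets in place of the brightest, SESN3 kept its calls with MLN4924 in p53 and BRCA1 siRNA and with Nutlin in GL2 siRNA. The changes with MLN4924 in GL2 and CDT1 siRNA (-0.49 and -0.61), the rise with BRCA1 siRNA (0.45) and the p53 less GL2 differences (-0.78, -0.79 and -0.90 for MLN4924, Nutlin and daunorubicin) then kept their sign and lost the call.

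In the order of group means, neighbours often could not be told apart. For SESN1 the order began with GL2 Nutlin (10.05), GL2 daunorubicin (9.57), GL2 MLN4924 (9.36), CDT1 MLN4924 (9.29) and BRCA1 MLN4924 (9.17), and ended with both p53 DMSO sets and p53 MLN4924 (6.56 to 6.76). The ranges of neighbours overlapped in 6 of 13 pairs. For SESN2 the 4 MLN4924 groups were among the top 6 (8.15 to 8.73), with GL2 Nutlin at 8.44 and GL2 daunorubicin at 8.26 between them, and 8 of 13 neighbours overlapped. For SESN3 the order began with GL2 Nutlin (8.01), BRCA1 DMSO (7.72) and GL2 daunorubicin (7.45), and ended with CDT1 MLN4924 (4.68) and p53 MLN4924 (3.18), with 8 of 13 overlapping.

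The drugs were also compared directly on their treated arrays in GL2 siRNA. Nutlin raised SESN1 more than MLN4924 did (MLN4924 less Nutlin -0.69 ± 0.13, adjusted p = 0.000101), where 27.5% of genes were called. For SESN2 the same comparison gave 0.29 ± 0.20 (95% interval -0.13 to 0.70, adjusted p = 0.301), and its sign turned without centring (-0.06). Without the doubted library it was 0.56 (adjusted p = 0.00281), under 1.5-fold. SESN3 was lower with MLN4924 than with Nutlin by 2.33 (-2.33 ± 0.30, adjusted p = 2.42e-07) and than with daunorubicin by 1.76 (-1.76 ± 0.30, adjusted p = 1.77e-05), where 29.1% were called. Without the doubted library these were -2.61 and -2.05, and the SESN1 difference from Nutlin was -0.62, all still called. Nutlin and daunorubicin differed by 0.48 ± 0.13 for SESN1 (adjusted p = 0.041, under 1.5-fold) and by less for SESN2 (0.18, adjusted p = 0.789), with 2.3% of genes called. In p53 siRNA, SESN2 was 1.64 ± 0.20 higher with MLN4924 than with Nutlin (adjusted p = 1.13e-07) and 0.92 ± 0.20 higher than with daunorubicin (adjusted p = 0.000472), where 29.5% and 28.5% of genes were called. The latter was 0.42 without centring (adjusted p = 0.138), 0.68 without the doubted array (adjusted p = 0.000389) and lost its call in a fit of only the groups compared (adjusted p = 0.083). Nutlin less daunorubicin in p53 siRNA was -0.72 ± 0.20 for SESN2 (adjusted p = 0.0134), with 11.7% of genes called. That call was lost without daunorubicin replicate 2 or 3 or Nutlin replicate 3 (adjusted p = 0.0689, 0.0501 and 0.0562), with the mean of both probe sets (-0.52, under 1.5-fold), with the other probe set (-0.24, adjusted p = 0.563) and in a fit of only the groups compared (adjusted p = 0.407). Without the doubted array it was -0.96 (adjusted p = 3.05e-05). No sestrin was called between the 2 DMSO sets of either siRNA, where 0.941% (GL2) and 0.278% (p53) of genes were, the largest difference being 0.66 ± 0.30 for SESN3 with p53 siRNA (adjusted p = 0.504).

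Unequal change of the paralogs was tested within each array, as the difference of 2 log2 signals, which does not depend on how arrays are scaled. Only changes of this difference between groups carry meaning, since its level also depends on the probes. There were 27 such tests by exact two-sided permutation, with p adjusted over all 27. With 3 treated against 6 DMSO arrays the smallest p possible is 0.0238, and with 3 against 3 it is 0.1.

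With Nutlin in GL2 siRNA, SESN1 less SESN2 rose from 0.18 ± 0.32 (SD, n = 6) to 1.61 ± 0.16 (SD, n = 3), a shift of 1.43, and with daunorubicin it shifted by 1.14. With MLN4924 in p53 siRNA it went from 0.67 ± 0.34 to -1.86 ± 0.19, a shift of -2.53. All 3 reached the smallest exact p (0.0238, adjusted 0.0495), with no overlap between treated and DMSO arrays. With MLN4924 in GL2 siRNA the shift was 0.46 and the ranges overlapped (exact p = 0.119, adjusted p = 0.153), and it was 0.26 without the doubted library. Leaving out any 1 array ends each of the 3 calls, since the smallest possible p then rises, while the shifts stayed between 1.06 and 1.55 for Nutlin and daunorubicin and between -2.65 and -2.43 for MLN4924 in p53 siRNA. Nutlin in p53 siRNA shifted the difference by -0.24 (exact p = 0.286) and daunorubicin in p53 siRNA by -0.55 (exact p = 0.214), both with overlap, the latter -0.99 without the doubted array (adjusted p = 0.121 by the exact test).

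The differences that involve SESN3 rest on a probe set that was dim in p53 siRNA with MLN4924 (signals of 4.0 to 15.3) and in CDT1 siRNA with MLN4924 (21.0 to 28.1), below the median of all values of 31.9, so the sizes there are not well defined. With MLN4924, SESN2 less SESN3 shifted by 2.75 in GL2 siRNA and by 5.17 in p53 siRNA, and SESN1 less SESN3 by 3.21 and 2.65, each at the smallest exact p of 0.0238 (adjusted p = 0.0495). With 16 added to every signal the shifts of SESN2 less SESN3 were 2.40 and 3.51 and those of SESN1 less SESN3 2.85 and 1.29. With the mean of all probe sets they were 2.14 and 3.72, and 2.76 and 1.17. All of these kept their call and sign. Leaving out any 1 array ends these calls too. Without the doubted library the shifts in GL2 siRNA were 3.31 and 3.56 (adjusted p = 0.121 by the exact test). In CDT1 and BRCA1 siRNA the shifts of both pairs lay between 2.64 and 3.37, with no overlap, at the smallest exact p of 0.1 that 3 against 3 arrays allow. They lay between 2.28 and 2.78 with 16 added and between 1.56 and 2.37 with the mean of all probe sets.

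SESN3 also shifted against its paralogs with the other drugs. SESN1 less SESN3 rose by 1.57 with Nutlin and 1.66 with daunorubicin in GL2 siRNA, and by 0.93 and 1.55 in p53 siRNA. SESN2 less SESN3 rose by 1.17 and 2.10 in p53 siRNA, all 6 shifts at the smallest exact p of 0.0238 (adjusted p = 0.0495). In GL2 siRNA SESN2 less SESN3 shifted by 0.13 with Nutlin (exact p = 0.667) and by 0.52 with daunorubicin (exact p = 0.0476, adjusted p = 0.0857), both with overlap. Leaving out any 1 array ends each of the 6 calls. With the mean of all probe sets the 2 shifts with Nutlin in p53 siRNA lost their calls (0.43 and 0.59), as did SESN2 less SESN3 with daunorubicin there (1.48). Those with daunorubicin in p53 siRNA were 1.57 and 2.57 without the doubted array (adjusted p = 0.121 by the exact test). Against the first DMSO set alone, where no call can be reached, the shifts with Nutlin in p53 siRNA were 0.50 and 0.54.

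**Figure D3:**
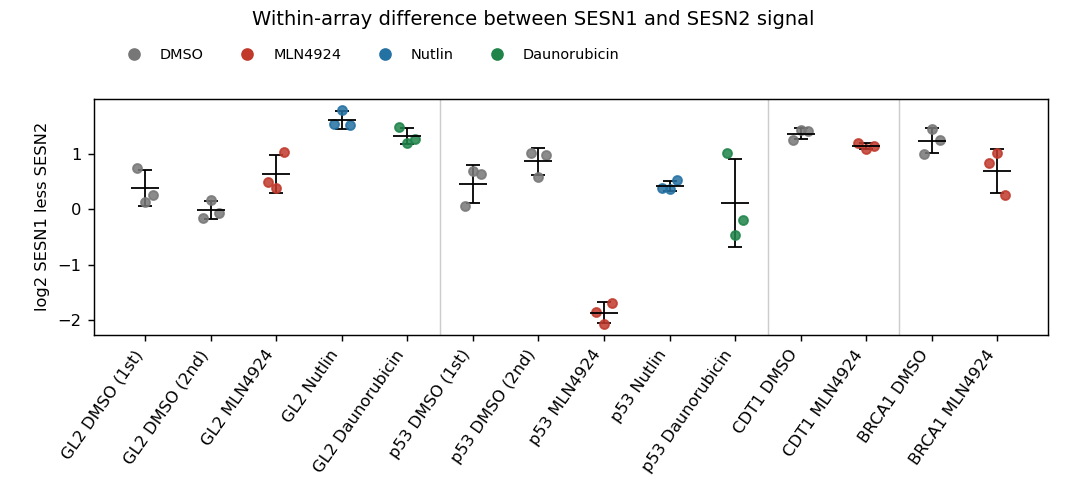
Log2 signal of SESN1 less that of SESN2 within each array (y axis, log2 units; points, 42 arrays), by group (x axis), with the mean and SD of 3 arrays. The p53 siRNA arrays with MLN4924 (-2.06 to -1.68) stand below all other arrays, and the GL2 siRNA arrays with Nutlin (1.52 to 1.80) stand above those with DMSO (-0.15 to 0.75).

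Genes that encode factors known to act on sestrin promoters differed between the conditions as well. ATF4, the factor of the integrated stress response, changed by 0.13 ± 0.11 with MLN4924 in GL2 siRNA (adjusted p = 0.421) and rose by 1.08 ± 0.11 in p53 siRNA (adjusted p = 3.62e-09), a difference of 0.95 (adjusted p = 0.000121). ATF3, a stress factor downstream of it, rose with MLN4924 by 3.48 in GL2 siRNA and 4.01 in p53 siRNA. DDIT3, which encodes the stress factor CHOP, rose by 1.22 and 2.25. XBP1, of the unfolded protein response, changed by 0.09 in GL2 siRNA (not called) and rose by 1.81 in p53 siRNA. NFE2L2, which encodes NRF2, changed by 0.25 (not called) and rose by 0.72. CEBPB and JUN rose in both, by 0.65 and 1.06 and by 1.22 and 1.86. HIF1A (0.14 and 0.58) and the p53 relative TP73 (-0.28 and 0.48) were not called in either, and NUPR1, a stress-induced chromatin protein, was called in GL2 siRNA (1.39) and not in p53 siRNA (0.38).

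The 3 FOXO genes measured differed from each other with MLN4924. FOXO3 rose by 1.30 in GL2 and 1.37 in p53 siRNA, FOXO1 changed by -0.32 and -0.52 (neither called), and FOXO4 changed by 0.23 in GL2 siRNA (not called) and fell by 1.04 in p53 siRNA. In GL2 siRNA, FOXO4 rose with Nutlin (0.66) and daunorubicin (0.74) and FOXO1 with daunorubicin (1.11). Over the whole list of 13 such genes, 6 were higher and 0 lower with MLN4924 in GL2 siRNA, and 8 higher and 1 lower in p53 siRNA (5 and 1 after quantile normalization). Of all genes, 10.2% were higher and 7.06% lower in GL2 siRNA, and 17.8% and 7.6% in p53 siRNA.

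Lists of targets of each factor, counted without the sestrins, are given by their calls and median, beside the median of all genes. The lists were put together with results of these data known, and they are no independent support. They also share members, so their counts are not separate readouts. Examples are GADD45A (p53 and FOXO targets), ATF3 (factors and ATF4 targets) and SRXN1 (NRF2 targets and the peroxiredoxin cycle). Over all genes, MLN4924 called 10.2% higher and 7.06% lower in GL2 siRNA and 17.8% higher and 7.6% lower in p53 siRNA. For Nutlin these shares were 7.91% and 10.8% in GL2 siRNA and 0.42% and 0.733% in p53 siRNA, and for daunorubicin 7.73% and 11.4%, and 6.52% and 7.38%. Under DMSO they were 1.71% and 2.27% for p53 siRNA, 2.72% and 3.58% for CDT1 siRNA, and 4.11% and 4.37% for BRCA1 siRNA. Of 32 p53 targets, 28 were higher and 0 lower with MLN4924 in GL2 siRNA (median 1.43, all genes 0.08), with GDF15 (5.35), FAS (2.59), CDKN1A (2.57) and TP53INP1 (2.88) leading. In p53 siRNA 13 were higher and 3 lower (median 0.46, all genes 0.20), or 9 and 5 without centring, the lower ones being TP53INP1 (-1.43), TP53I3 (-0.72) and DDB2 (-0.81), with GADD45A (2.42), GDF15 (2.40), PMAIP1 (2.27) and AEN (1.31) leading. Nutlin raised 27 in GL2 siRNA and 5 in p53 siRNA (8 without centring), with 0 lower in each. Daunorubicin raised 24 in GL2 siRNA and 18 in p53 siRNA, where CDKN1A still rose by 2.94, and BAX, a death effector, fell there (-1.06). Under DMSO, p53 siRNA lowered 9 and raised 0, CDT1 siRNA raised 5 and BRCA1 siRNA raised 16, both of these lowering 0.

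Of 33 targets of ATF4 and the integrated stress response, 17 were higher with MLN4924 in GL2 siRNA (median 0.59) and 28 in p53 siRNA (median 1.16), with 0 lower in either. ATF3, SLC3A2 (1.02 and 1.85), which encodes an amino acid transporter subunit, and CTH (1.85 and 2.31), an enzyme of cysteine synthesis, rose in both. The change with MLN4924 was larger in p53 siRNA for 16 and smaller for 1, where 6.96% of all genes had a larger and 3.41% a smaller change. These counts were 8 and 2 without centring and 6 and 2 after quantile normalization. With Nutlin in GL2 siRNA 2 were higher and 9 lower (5 and 8 without centring), and with daunorubicin 1 was higher and 12 lower (2 and 7). PHGDH, the first enzyme of serine synthesis, fell by 1.73 and 1.66 in these. SESN2 rose in both. With daunorubicin in p53 siRNA 15 were higher and 1 lower, the latter DDIT4 (-1.52).

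Of 22 NRF2 targets, 15 were higher and 0 lower with MLN4924 in GL2 siRNA (median 1.01), and 12 higher and 1 lower in p53 siRNA (median 0.72), the lower one being the exporter gene ABCC3 (-1.86). AKR1B10, an aldo-keto reductase, rose by 3.21 and 2.24, and SRXN1, the sulfiredoxin that restores peroxiredoxins, by 2.06 and 2.50. With Nutlin in GL2 siRNA 3 were higher and 2 lower, and with daunorubicin in p53 siRNA 0 were higher and 5 lower. Of 23 FOXO targets, 6 were higher and 3 lower with MLN4924 in GL2 siRNA, and 7 higher and 4 lower in p53 siRNA (7 and 7 without centring). GADD45A (1.79 and 2.42) and MXI1 (2.04 and 2.00) rose while PDK4, a brake on glucose oxidation, fell (-1.27 and -2.13), so the list held members moving both with and against SESN3. With Nutlin in GL2 siRNA 5 were higher and 3 lower (6 and 1 without centring), and with daunorubicin 4 higher and 1 lower (10 and 0).

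**Figure D4:**
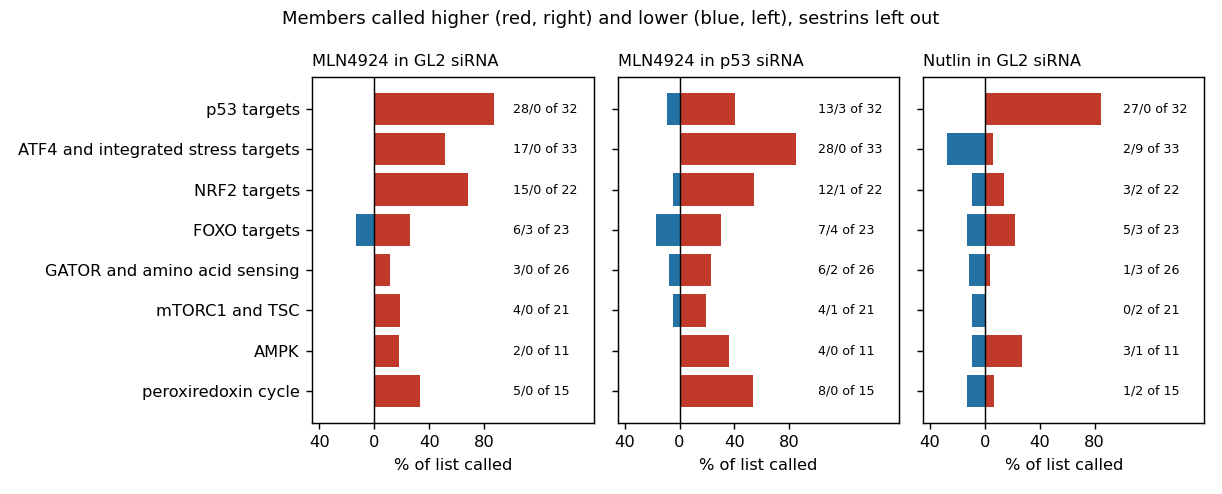
Share of each list's measured members called higher (right, red) or lower (left, blue) in percent of the list (x axis), for MLN4924 in GL2 and p53 siRNA and Nutlin in GL2 siRNA, with counts higher/lower of members measured. With MLN4924, 28 of 32 p53 targets are higher in GL2 siRNA and 13 in p53 siRNA (9 without centring), and the ATF4 list from 17 to 28 of 33.

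The genes through which sestrins act were counted in the same way, beside the 10.2% (GL2 siRNA) and 17.8% (p53 siRNA) of all genes called higher with MLN4924. For the GATOR and mTORC1 lists the shares higher were 11.5% and 19.0% in GL2 siRNA and 23.1% and 19.0% in p53 siRNA. The GATOR share in GL2 siRNA and the mTORC1 share in p53 siRNA lay near that of all genes. The other shares rest on few genes and moved with the scaling, so none of these counts is a result about the lists. Of 26 genes of the GATOR and amino acid sensing machinery, 3 were higher and 0 lower with MLN4924 in GL2 siRNA, or 1 and 1 without centring and 6 and 0 without the doubted libraries. These were SLC38A9, the lysosomal arginine sensor (0.73), WDR59, a GATOR2 subunit (0.88), and FLCN (0.64), a regulator of the Rag GTPases. In p53 siRNA 6 were higher and 2 lower (2 and 5 without centring, 1 and 4 after quantile normalization), among them SEH1L, of GATOR2 (1.04), and CASTOR2, an arginine sensor relative (-0.92). Of 21 genes listed for mTORC1 and TSC, 4 were higher and 0 lower in GL2 siRNA (1 and 0 without centring). Among these were PRR5 (1.001), counted though it is an mTORC2 subunit, and TSC1, of the complex that restrains mTORC1 (0.62). In p53 siRNA 4 were higher and 1 lower (1 and 5 without centring). EIF4EBP1, the translation repressor that mTORC1 inactivates, rose by 1.24 in p53 siRNA. With daunorubicin in p53 siRNA 0 of the 21 were higher and 7 lower (33.3%), where 6.52% of all genes were higher and 7.38% lower. That count also rests on few genes and is no result about the list.

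Of 11 AMPK genes, 2 were higher in GL2 siRNA, PRKAB2 (1.29) and PRKAB1 (0.78), both regulatory subunits. In p53 siRNA 4 were higher, or 0 higher and 1 lower without centring. The shares higher were 18.2% and 36.4%, but on 2 and 4 genes, so these counts are no result about the list either. Of 15 genes listed for the peroxiredoxin cycle, 5 were higher in GL2 siRNA, with SRXN1, TXNRD1 (1.28), TXNIP (1.87) and KEAP1 (0.93) leading. In p53 siRNA 8 were higher (4 without centring), with 0 lower in either siRNA, shares of 33.3% and 53.3%. KEAP1 was counted though it is not itself a part of the cycle. TXNRD1 encodes thioredoxin reductase, and TXNIP an inhibitor of thioredoxin.

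The profile over the 14 group means was compared among the 3 sestrins and with all other genes. Pearson's r was 0.72 between SESN1 and SESN2, 0.42 between SESN1 and SESN3 and -0.14 between SESN2 and SESN3, over points that share siRNAs and treatments. Among 9886 genes brighter than the median gene, those most like SESN1 were RRM2B (r = 0.99), CYFIP2 (0.98), DGKA (0.97), ACTA2 (0.97) and KDM4B (0.97). RRM2B encodes a ribonucleotide reductase subunit and ACTA2 smooth muscle actin. Those most like SESN2 were NAT9 (0.95), CLK3 (0.94), NDRG1 (0.93), POLR3A (0.93) and IKBKB (0.93), of which POLR3A encodes the largest subunit of RNA polymerase III. Those most like SESN3 were FBXW4 (0.96), TGFA (0.96), SLC16A4 (0.95), SH3PXD2A (0.94) and POLD4 (0.94), of which TGFA encodes a ligand of the EGF receptor and POLD4 a subunit of DNA polymerase delta.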

How the data were processed

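Total RNA of A375 cells was hybridised to 42 Affymetrix arrays, and the authors deposited 1 linear intensity (signal) per probe set and array, for which the submitters' processing notes name Affymetrix Expression Console (version not given in the sources used here). From the values, every array's trimmed mean (2% cut at each end) was 150.0, so the deposited intensities were scaled to a common level. Of 54675 probe sets, 41091 carried 1 symbol, giving 19775 genes, each by its brightest probe set. Symbols came from the platform annotation, which can be old. The 147 values of 0 were raised to 0.1, log2 was taken, and arrays were centred by their median gene.

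One limma (3.58.1, R 4.3.3) fit of 14 groups with 28 residual degrees of freedom gave moderated tests, adjusted by Benjamini-Hochberg over all genes. Both DMSO sets were averaged as the control of GL2 and p53 siRNA, since the labels tie neither set to a drug. The fit was tested on simulated data. Paralog differences used exact permutation tests (scipy 1.17.1, Python 3.11.15). Alternatives changed the scaling, control set, pseudocount, probe sets, weights, fit and arrays used. No array duplicated another. Precision is limited by how few arrays each group has.

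The sestrins and the lists (p53, ATF4, NRF2 and FOXO targets, factors, GATOR, mTORC1 and TSC, AMPK, the peroxiredoxin cycle and cell type markers) were chosen with earlier results of these data known. Named genes are the sestrins, checks, factors, the up to 4 members of a list with the largest moderated statistic, and the 5 genes most correlated with each sestrin. TP53I3 and DDB2 with MLN4924 in p53 siRNA, BAX, ABCC3 and PDK4 in GL2 siRNA were named after their values were seen. Some genes of the lists are not reported here.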

Additional observations from a re-analysis of the deposited data

Results flagged for a closer look

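Of 15 tests of whether a drug changed a sestrin differently between siRNAs, 8 passed the threshold. The tests share arrays and are not independent. Of all genes, the p53 less GL2 differences called 10.4% with MLN4924, 13.1% with Nutlin and 18.8% with daunorubicin. With MLN4924, the CDT1 and BRCA1 less GL2 differences called 1.22% and 1.86%. SESN1 changed less with p53 than with GL2 siRNA under MLN4924 (-2.33), Nutlin (-2.37) and daunorubicin (-1.48), and less with CDT1 (-1.14) and BRCA1 siRNA (-1.72) than with GL2 siRNA under MLN4924. SESN3 differed between p53 and GL2 siRNA under MLN4924 (-1.77), Nutlin (-1.73) and daunorubicin (-1.38). All are log2 differences by limma.

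Among 6 sets of DMSO arrays (3 sestrins, GL2 and p53 siRNA), 1 held an array far from the others. SESN2 stood at 6.38 on the first GL2 siRNA DMSO set's replicate 1, while the other 5 arrays ran from 6.96 to 7.13. Chance marks about 1 in 20 such sets.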

How the results depend on the processing

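Over 55 results of the sestrins, 590 values under other settings comprised 530 with the same direction and side of the threshold, 22 that lost the call, 28 that gained it and 10 that turned sign. Leaving out 1 array gave 606 values, of which 558, 35, 11 and 2 did so. The 35 include 9 lost calls each for SESN1 less SESN2 with MLN4924 in p53 siRNA and with Nutlin and daunorubicin in GL2 siRNA. Those losses were fixed in advance, since the smallest possible p of the exact test then rises. Unless said otherwise, the cause was not tested.

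Without centring, SESN1 with Nutlin in p53 siRNA was called at 0.73 and SESN2 for MLN4924 less Nutlin in GL2 siRNA was -0.059. After quantile normalization these were 0.63 and -0.031, and the p53 less GL2 difference of SESN2 with Nutlin was called (-0.84).

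Against the first DMSO set alone, calls were lost for SESN3 with MLN4924 in GL2 siRNA (-0.77), SESN2 with Nutlin in p53 siRNA (0.51) and, for p53 siRNA under DMSO, SESN2 (-0.49) and SESN3 (-0.89). The SESN2 difference with Nutlin was called (-1.14), that with daunorubicin was -0.24, and SESN2 with CDT1 siRNA was 0.024. Against the second set alone, SESN1 with MLN4924 in p53 siRNA was 0.027, SESN1 with Nutlin in p53 siRNA was called (0.68), and SESN3 with daunorubicin lost its call in GL2 siRNA (0.63) and gained one in p53 siRNA (-0.90). SESN3 with p53 siRNA lost its call (-0.59), with CDT1 siRNA it was -0.11, and the SESN2 difference with MLN4924 was called (1.09). The shifts of SESN1 less SESN2 were -2.33, 1.24 and 0.94 against the first set and -2.73, 1.63 and 1.33 against the second, for MLN4924 in p53 siRNA and for Nutlin and daunorubicin in GL2 siRNA. These lost their calls because 3 against 3 arrays cannot go below 0.1. SESN2 less SESN3 with p53 siRNA was 0.40 against the first set.

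With 16 added to each signal, the SESN3 difference with MLN4924 between p53 and GL2 siRNA lost its call (-0.63), that between BRCA1 and GL2 siRNA gained one (-1.04), and the SESN2 difference with Nutlin gained one (-0.73). With the mean of all probe sets, SESN3 lost calls with MLN4924 in GL2 (-0.49) and CDT1 siRNA (-0.61), with p53 siRNA (-0.043) and BRCA1 siRNA (0.45), and in the p53 less GL2 differences (-0.78, -0.79 and -0.90). Its values with Nutlin in p53 siRNA (0.17) and with CDT1 siRNA (-0.028) turned sign. SESN1 with Nutlin in p53 siRNA was called (0.60), as were the SESN2 differences with MLN4924 (0.81) and Nutlin (-0.76), and the one with daunorubicin was -0.055. SESN1 less SESN2 was called with MLN4924 in GL2 siRNA (0.63) and with p53 siRNA (0.47) and turned with MLN4924 in CDT1 siRNA (0.11). SESN1 less SESN3 (-0.40) turned with p53 siRNA, where SESN2 less SESN3 was called (-0.88).

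Without dim genes (fewer genes tested) the SESN2 differences with MLN4924 (0.65) and Nutlin (-0.70) were called, the latter also with trend and robust options (-0.70), array weights (-0.64) and only the groups compared (-0.70), where SESN2 with Nutlin in p53 siRNA lost its call (0.81). Array weights also called SESN3 with daunorubicin in p53 siRNA (-0.96) and the SESN2 differences of CDT1 (-0.64) and BRCA1 (-1.01) from GL2 siRNA with MLN4924.

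The pseudocount of 16 for differences between sestrins (no call or sign changed) and both of the following were chosen after seeing the data. With the other probe set, SESN2 with Nutlin in p53 siRNA lost its call (0.65), the p53 less GL2 differences were called with MLN4924 (1.03) and Nutlin (-0.89), and those with daunorubicin (-0.43), of MLN4924 less Nutlin (-0.078), of the second less the first DMSO set in GL2 siRNA (-0.093) and with CDT1 siRNA (0.0011) turned. SESN1 less SESN2 was called with MLN4924 in GL2 siRNA (0.79) and turned with MLN4924 in CDT1 siRNA (0.45) and daunorubicin in p53 siRNA (0.0902). Without the doubted libraries, SESN3 with daunorubicin in p53 siRNA (-0.79) and the SESN2 differences of CDT1 (-0.73) and BRCA1 (-1.22) from GL2 siRNA were called.

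Leaving out 1 array at a time changed a call or sign within these ranges. For SESN1 with Nutlin in p53 siRNA the range was 0.53 to 0.62. For SESN2 it was 0.74 to 0.89 with Nutlin in p53 siRNA, 0.38 to 0.82 and -0.78 to -0.60 in the p53 less GL2 differences with MLN4924 and Nutlin, and -0.997 to -0.56 in the BRCA1 less GL2 difference. For SESN3 it was -1.24 to -0.70 with MLN4924 and 0.73 to 0.88 with daunorubicin in GL2 siRNA, -0.82 to -0.64 with p53 siRNA, -0.012 to 0.17 with CDT1 siRNA, and -0.019 to 0.43 for Nutlin less daunorubicin in p53 siRNA. For SESN1 less SESN2 it was 1.34 to 1.55 with Nutlin and 1.06 to 1.25 with daunorubicin in GL2 siRNA and -2.65 to -2.43 with MLN4924 in p53 siRNA, and for SESN2 less SESN3 with p53 siRNA -0.35 to 0.036.

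Same-numbered arrays showed no common deviation (r from -0.78 to 0.33, median -0.01, over 273 pairs). No pairing by number was seen. This cannot exclude one, since the deviations of so few arrays around their own group mean are not independent. With the replicate number as a block, SESN1 with MLN4924 in GL2 siRNA stayed at 2.26 and SESN3 at -0.95 (adjusted p = 0.00751), and no call of a sestrin changed.

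Counts of all genes called moved by over 1.5 times in places. Nutlin in p53 siRNA called 228, but 11 and 742 against the first and second DMSO set, 470 with array weights and 15 with only the groups compared. With the first set alone the p53 siRNA effect called 346 (787) and the p53 less GL2 difference with MLN4924 1290 (2051). The CDT1 less GL2 difference called 241, and between 159 (mean of probe sets) and 966 (array weights), and BRCA1 less GL2 368, with 697 under array weights. Without the doubted libraries these were 658 and 624. Only the groups compared gave 1150 in place of 2750 for daunorubicin in p53 siRNA, 1599 in place of 5642 for MLN4924 less daunorubicin there, and 13 in place of 2311 for Nutlin less daunorubicin there. MLN4924 less Nutlin in p53 siRNA called 5828, and 3803 after quantile normalization. Nutlin less daunorubicin in GL2 siRNA called 455, and 96 to 835. SESN3 signals near 4.0, in p53 siRNA with MLN4924, set the limit of what the fold changes can show.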
